A study of Bos taurus with 12 samples.

Results

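POU5F1 (also called OCT4), NANOG and SOX2 are the core transcription factors of pluripotency, and their transcript levels were followed from bovine fetal fibroblasts to fertilised and cloned embryos. The 3 genes were chosen by their Ensembl identifiers, ENSBTAG00000021111.5 for POU5F1, ENSBTAG00000020916.3 for NANOG and ENSBTAG00000011598.5 for SOX2, and all 3 were present among the 22445 loci of the deposited table. RNA sequencing of Holstein cattle covered 4 groups of 3 libraries each, 12 in all. The groups were fetal fibroblasts (BFF), 8-cell embryos made by in vitro fertilisation (IVF), 8-cell embryos made by somatic cell nuclear transfer (SCNT), and SCNT 8-cell embryos with KDM5B overexpression. Each embryo library came from a pool of 8 embryos. In SCNT an egg is stripped of its own chromosomes and given a donor nucleus from a somatic cell. KDM5B is a demethylase that acts on lysine 4 of histone H3. The labels do not say how KDM5B was introduced, which fibroblasts served as donors, or whether the IVF and SCNT embryos received a control injection. They name no other allele or agent.

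Expression was given in FPKM, a fragment count corrected for transcript length and library total, with 1 value per group and locus. These values are the authors' means of 3 libraries. Values of single libraries were not analysed here, so there is no SD and no test, and every difference below is between group means without a replicate check. For the same reason it is unknown which neighbours in an order of levels differ beyond the spread of their libraries. Sequencing depth is unknown. The pairing of the 3 identifiers with their names came with the choice of genes. It could not be checked in the RefSeq gene table used (assembly ARS-UCD2.0), which holds all 3 symbols but 0 Ensembl identifiers. Other genes of the pluripotency network, KDM5B itself, and the markers of fibroblasts and early embryos could not be matched to rows and were not analysed here.

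POU5F1 is a POU-family homeodomain protein, and SOX2 is an HMG-box protein that binds DNA beside it at composite sites. NANOG is a further homeodomain protein. In pluripotent cells the 3 proteins bind their own and each other's regulatory regions and keep lineage genes low. In the early bovine embryo the egg carries maternal POU5F1 transcripts, and major activation of the embryo's own genome falls around the 8-cell stage. NANOG and SOX2 later mark the inner cell mass and epiblast, from which the fetus forms. Fibroblasts silence all 3 genes, so their expression from donor chromatin after nuclear transfer requires that they be switched on again.

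The 3 genes did not move together in cloned embryos. POU5F1 and SOX2 means were lower in SCNT than in IVF embryos, while the NANOG mean was 20.3 times higher. With KDM5B overexpression, the NANOG mean was higher still, and the POU5F1 and SOX2 means stayed close to those of SCNT embryos without it. All 3 genes were at or near 0 in fibroblasts.

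**Figure D1:**
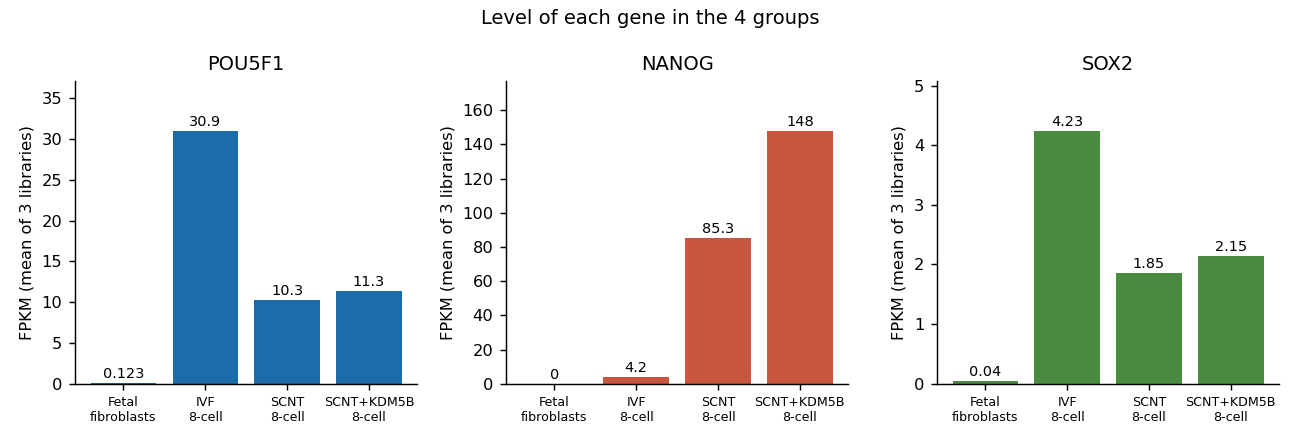
Mean FPKM (3 libraries per group, no error available) of POU5F1, NANOG and SOX2 in fetal fibroblasts and in IVF, SCNT and SCNT plus KDM5B 8-cell embryos; each panel has its own axis from 0. POU5F1 and SOX2 are highest in IVF embryos (30.9 and 4.23 FPKM), NANOG in SCNT embryos with KDM5B (148 FPKM).

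Fibroblasts held little or none of the 3 transcripts. POU5F1 stood at 0.123 FPKM, a sum of 0.37 FPKM over the 3 libraries, and SOX2 at 0.04 FPKM, a sum of 0.12. NANOG was listed at 0 FPKM, as were 20.1% of all loci in that column. The percentile of a gene among all loci of a column, counting loci with lower values and an equal share of ties on either side, was 35.2 for POU5F1, 28.2 for SOX2 and 10.1 for NANOG. In fibroblasts all 3 therefore ranked in the lower part of the listed loci.

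IVF embryos had all 3 genes above 1 FPKM. POU5F1 reached 30.9 FPKM. The groups hold no eggs or earlier embryos, so maternal and embryonic transcripts cannot be told apart. SOX2 stood at 4.23 and NANOG at 4.20 FPKM, nearly equal levels per transcript length. The percentiles were 87.6 for POU5F1, 64.4 for SOX2 and 64.3 for NANOG.

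The IVF mean of POU5F1 was 251 times the fibroblast mean, and that of SOX2 was 106 times. Library values appear rounded to 0.01 FPKM, and rounding alone allows ratios of 241 to 262 for POU5F1 and 93.9 to 121 for SOX2. No ratio was formed for NANOG, whose fibroblast value is listed at 0. On the scale of log2(FPKM + 1), which understates differences of low genes, fibroblasts minus IVF was -4.83 for POU5F1, -2.38 for NANOG and -2.33 for SOX2. All 3 were past the 2-fold limit used for calls. So were 40.9% of the 15634 loci compared in this direction. Differences lower than that of POU5F1 were found at 576 loci. The series' design lists a BGISEQ sequencer for fibroblasts and a HiSeq for embryos, whereas the labels' protocol mentions only the HiSeq. If the design holds, the sequencer and the kind of cell cannot be told apart here.

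SCNT embryos had all 3 transcripts above the level of fibroblasts. POU5F1 stood at 10.3 FPKM, 83.6 times the fibroblast mean, and SOX2 at 1.85 FPKM, 46.3 times. NANOG stood at 85.3 FPKM against a listed 0. In SCNT embryos too, transcripts left from the egg and those made by the embryo cannot be told apart. SCNT minus fibroblasts on the log2 scale was 3.33 for POU5F1, 6.43 for NANOG and 1.46 for SOX2, all past 2-fold, as were 36.7% of 14703 loci in this direction. Only 108 loci had a larger difference than NANOG. The open point on the sequencer of the fibroblasts applies to this comparison too.

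**Figure D2:**
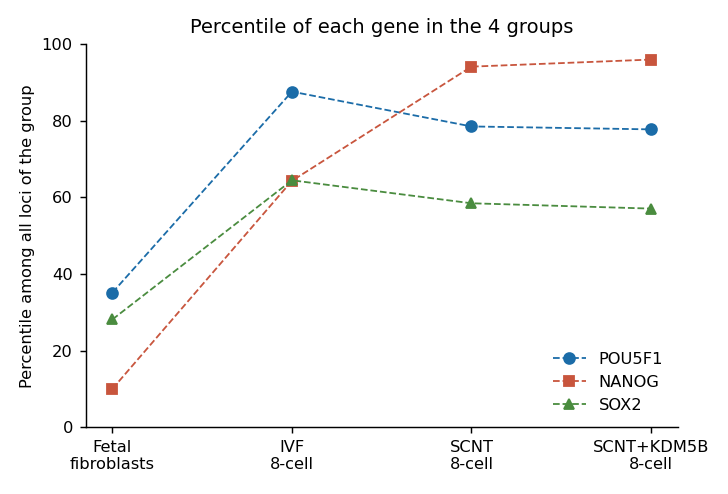
Percentile of each gene among all 22445 loci of its group (y axis, 0 to 100) in the 4 groups (x axis); dashed lines join points of 1 gene and show no time course. NANOG goes from percentile 64.3 in IVF to 94.1 in SCNT and 95.9 with KDM5B, while POU5F1 and SOX2 are lower in both SCNT groups than in IVF.

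The comparison of cloned with fertilised embryos of the same stage asks how far the pluripotency genes reach the level found after fertilisation. The POU5F1 mean was 30.9 FPKM in IVF embryos against 10.3 in SCNT embryos, 3.00 times lower, and its percentile was 87.6 against 78.5. The log2 difference, SCNT minus IVF, was -1.50, past 2-fold. At least 2-fold lower were 36.7% of the 14836 loci with 1 FPKM or more in any embryo group, and 3399 of them fell below POU5F1 in this difference. The POU5F1 value is thus a common one among embryo loci. The median difference over these loci was -0.45, and POU5F1 stood at -1.05 relative to that median. Columns were also centred, by subtracting from each the median deviation of its loci from their own mean over the embryo groups. This step is close to subtracting the median difference and is no separate check. With columns centred, POU5F1 was at -1.04, and 24.1% of loci were at least 2-fold lower and 31.6% at least 2-fold higher.

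SOX2, its DNA-binding partner, had 4.23 FPKM in IVF embryos against 1.85 in SCNT embryos, 2.28 times less. Its log2 difference of -0.87 did not pass the 2-fold limit. It stood at -0.43 relative to the median locus, at percentile 40.3 of all differences. At a pseudocount of 0.1 the value was -1.15, and after rescaling to TPM -1.06, both past the limit. SOX2 was therefore lower in SCNT under each scaling tried, by a size on either side of 2-fold.

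NANOG went the other way, from 4.20 FPKM in IVF to 85.3 in SCNT. The log2 difference was 4.05, at percentile 98.5 of the 14836 differences, with 224 loci above it. At least 2-fold higher were 23.3% of the loci. Relative to the median locus, NANOG was higher by 4.50. Its rank among all loci was 8011 in IVF and 1327 in SCNT.

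The sums behind the means set a limit on what single libraries can hold, since no library can exceed the sum of its group. The 3 IVF libraries held 12.59 FPKM of NANOG in all, and the highest SCNT library must hold at least the SCNT mean of 85.3. Allowing for rounding, at least 1 SCNT library therefore held at least 6.7 times the NANOG FPKM of every IVF library. A SCNT mean above the IVF sum by any amount was met by 22.4% of the 14836 loci. The share of loci at 6.7 times or more was not counted. Whether the other SCNT libraries were also high cannot be read from a mean. For POU5F1 the IVF mean of 30.94 FPKM was nearly equal to the SCNT sum of 30.92, and with rounding at the limit nothing can be said. For SOX2 the SCNT sum of 5.56 FPKM was above the IVF mean, so its libraries may overlap.

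**Figure D3:**
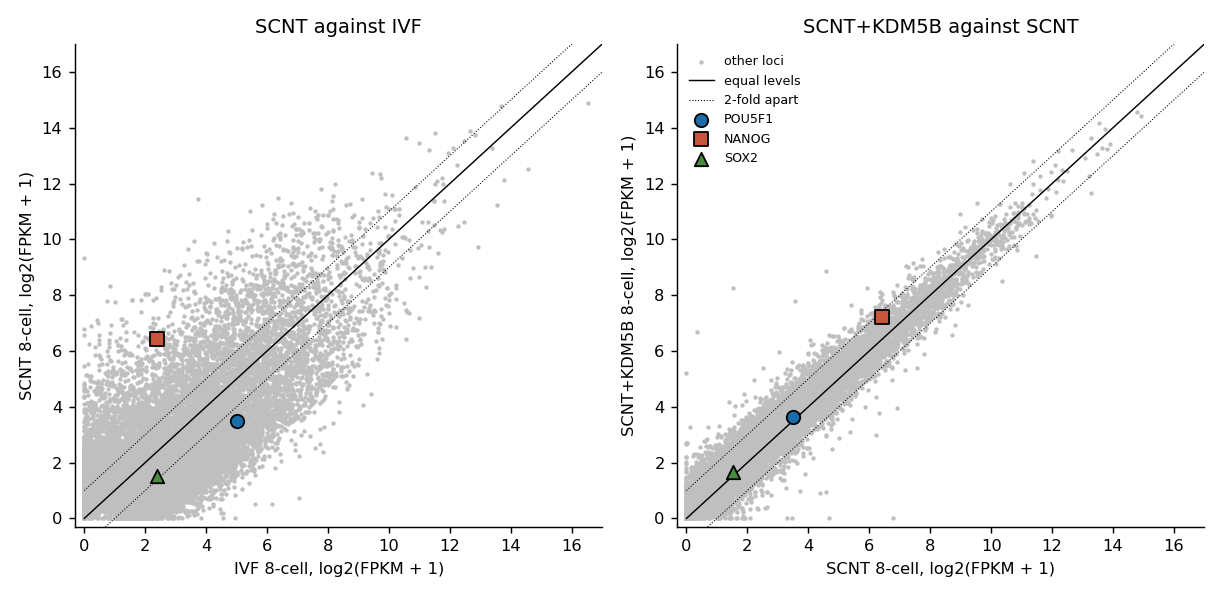
Each point is 1 of 14836 loci with at least 1 FPKM in any embryo group, in log2(FPKM + 1); left, SCNT (y) against IVF (x); right, SCNT with KDM5B (y) against SCNT (x). In the left panel NANOG differs from the line of equal levels by 4.05 and POU5F1 by -1.50; in the right panel all 3 genes lie between the dotted 2-fold lines.

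Among the 12582 loci with at least 1 FPKM in IVF, 149, NANOG included, had a SCNT to IVF ratio at least as large as that of NANOG. This count gives the rank of NANOG by ratio and was chosen after the values were seen.

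The next comparison asks whether KDM5B overexpression changed the 3 genes in cloned embryos. NANOG stood at 85.3 FPKM in SCNT and 148 with KDM5B, a ratio of 1.73. The log2 difference, KDM5B minus SCNT, was 0.78, and 1783 of the 14836 loci had a larger one. The POU5F1 means were 10.3 and 11.3 FPKM, 1.10 times apart, with a log2 difference of 0.12. For SOX2 the means were 1.85 and 2.15 FPKM, 1.16 times apart, with a log2 difference of 0.14. None of the 3 passed 2-fold, nor did most loci, since 8.27% did in either direction and 6.46% upward (3.50% upward and 3.34% downward with columns centred).

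The median log2 difference over all 14836 loci was 0.18, higher with KDM5B, while 268 loci were at least 2-fold lower. Relative to that median POU5F1 stood at -0.06 and SOX2 at -0.04, so with columns centred, and also after quantile normalization, the sign of both small differences turned. NANOG remained higher by 0.60. The NANOG sum over the 3 SCNT libraries was 256 FPKM, above the KDM5B mean of 148, so the libraries of these groups may overlap. Percentiles among all loci moved little, from 78.5 to 77.7 for POU5F1, from 58.5 to 57.1 for SOX2 and from 94.1 to 95.9 for NANOG.

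Levels of cloned embryos with KDM5B were then set beside those of IVF embryos. For POU5F1, SCNT minus IVF was -20.6 FPKM and KDM5B minus IVF was -19.6 FPKM, and the difference between the clone groups, 1.02 FPKM, amounted to 4.93% of the first gap as deposited. With columns centred or quantile normalization the POU5F1 difference between the clone groups was -0.07 or -0.08 on the log2 scale, away from IVF. For SOX2 the clone groups differed by 0.293 FPKM, 12.3% of the SCNT minus IVF difference of -2.38 FPKM, and under the same scalings the SOX2 difference was -0.05 or -0.11 on the log2 scale, also away from IVF. NANOG, already 81.1 FPKM above IVF in SCNT, was 143 FPKM above it with KDM5B and lay farther from IVF. These gaps share the SCNT column and are given as values only.

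On the log2 scale, KDM5B minus IVF was -1.37 for POU5F1, -0.73 for SOX2 and 4.84 for NANOG. POU5F1 was past the limit downward, as were 31.2% of the 14836 loci, and SOX2 was not. NANOG was past it upward, as were 25.9%, and 95 loci had a larger difference. With columns centred these shares of loci were 23.5% and 30.8%. The NANOG ratio was 35.2. At least 1 library with KDM5B held at least 11.7 times the NANOG FPKM of every IVF library. A KDM5B mean above the sum of the IVF libraries by any amount was found at 24.5% of loci. The share at 11.7 times or more was not counted.

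Ratios between the genes within 1 group do not change when a whole column is multiplied by a constant. NANOG over POU5F1 was 0.136 in IVF, 8.28 in SCNT and 13.0 with KDM5B. This ratio of levels was thus 61.0 times higher in SCNT than in IVF and 96.0 times higher with KDM5B. NANOG over SOX2 was 0.992 in IVF, 46.0 in SCNT and 68.7 with KDM5B. SOX2 over POU5F1, the partner pair at composite sites, was 0.137 in IVF, 0.180 in SCNT and 0.190 with KDM5B, 1.32 and 1.39 times the IVF ratio.

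The FPKM summed over the 3 genes was 39.4 in IVF, 97.5 in SCNT and 161 with KDM5B. The share of each gene in this sum depends on the levels of all 3. POU5F1 made up 78.6% in IVF, 10.6% in SCNT and 7.03% with KDM5B. NANOG made up 10.7%, 87.5% and 91.6%. The most abundant of the 3 transcripts was therefore POU5F1 in fertilised embryos and NANOG in both groups of cloned embryos. FPKM is relative to the library total, so the number of NANOG transcripts per embryo was not measured. Whether NANOG differed in the number of embryos, of blastomeres or of transcripts per blastomere cannot be told apart in pools.

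**Figure D4:**
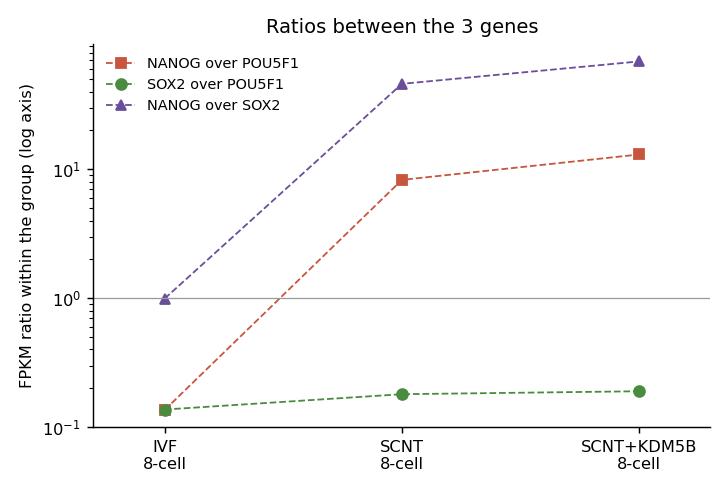
FPKM ratios between the 3 genes within IVF, SCNT and SCNT plus KDM5B embryos, on a log axis, from group means without error. NANOG over POU5F1 goes from 0.136 in IVF to 8.28 and 13.0 in the clone groups, while SOX2 over POU5F1 stays between 0.137 and 0.190.

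By order of the 4 deposited means, POU5F1 and SOX2 shared a pattern, highest in IVF, then SCNT with KDM5B, SCNT and fibroblasts. The clone groups change places in this order by percentile among all loci, with columns centred and after quantile normalization. Percentiles among loci with at least 1 FPKM kept the clone groups in the order of the means. They were 57.1 in SCNT and 58.8 with KDM5B for POU5F1, and 17.2 and 20.5 for SOX2. Loci at 0 made up 15.3% of the SCNT column and 9.58% of the KDM5B column. The order of the deposited means was found at 15.8% of 17081 loci with 1 FPKM or more in any group. The NANOG order, SCNT with KDM5B above SCNT, IVF and fibroblasts, was found at 8.33%. Likeness of levels was measured as the Euclidean distance in log2(FPKM + 1) over the 4 means. It was taken among 13372 other Ensembl loci with 1 FPKM or more in a group. A locus with the same order at another level counts as far, and a near locus need not share the order. Nearest to POU5F1 was ENSBTAG00000005252.3, at a distance of 0.25, with 0.27 FPKM in fibroblasts, 32.1 in IVF, 10.4 in SCNT and 9.92 with KDM5B. Nearest to SOX2 was ENSBTAG00000025535.4, at 0.15, listed at 0 in fibroblasts and with 4.55, 1.80 and 1.93 FPKM in the embryo groups. Within a distance of 0.5 there were 3 loci for POU5F1, 28 for SOX2 and 0 for NANOG. Such counts were not made for other loci of like level, so how unusual these are is unknown. The nearest to NANOG, ENSBTAG00000016272.5, lay at 0.66, with 0.00667 FPKM in fibroblasts, 5.03 in IVF, 105 in SCNT and 101 with KDM5B. The files do not pair these identifiers with names.

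In the RefSeq table the neighbours of NANOG were the pseudogene LOC512775 and DPPA3 on one side and SLC2A3 and the pseudogene LOC132345343 on the other. POU5F1 lay between LOC112443864 and TCF19. The span of SOX2 overlapped that of LOC100849009, a long non-coding RNA. These places are of the assembly ARS-UCD2.0, whereas the processing notes name UMD3.1, in which they were not checked. The sources used here do not say whether reads were counted by strand, so reads of SOX2 and of an overlapping transcript may not be told apart. POU5F1 and NANOG have processed copies in several mammals, and how reads shared with such copies were assigned is not given in the sources used here.

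The sign of the POU5F1, NANOG and SOX2 differences against IVF was the same under 5 other treatments of the values. A change of pseudocount cannot alter a sign, so only TPM, quantile normalization and centring could have done so. SCNT minus IVF ranged from -1.69 to -1.04 for POU5F1, from 3.30 to 4.51 for NANOG and from -1.15 to -0.42 for SOX2. For KDM5B minus SCNT, NANOG ranged from 0.59 to 0.79, while POU5F1 (-0.08 to 0.13) and SOX2 (-0.11 to 0.20) took either sign.

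**Figure D5:**
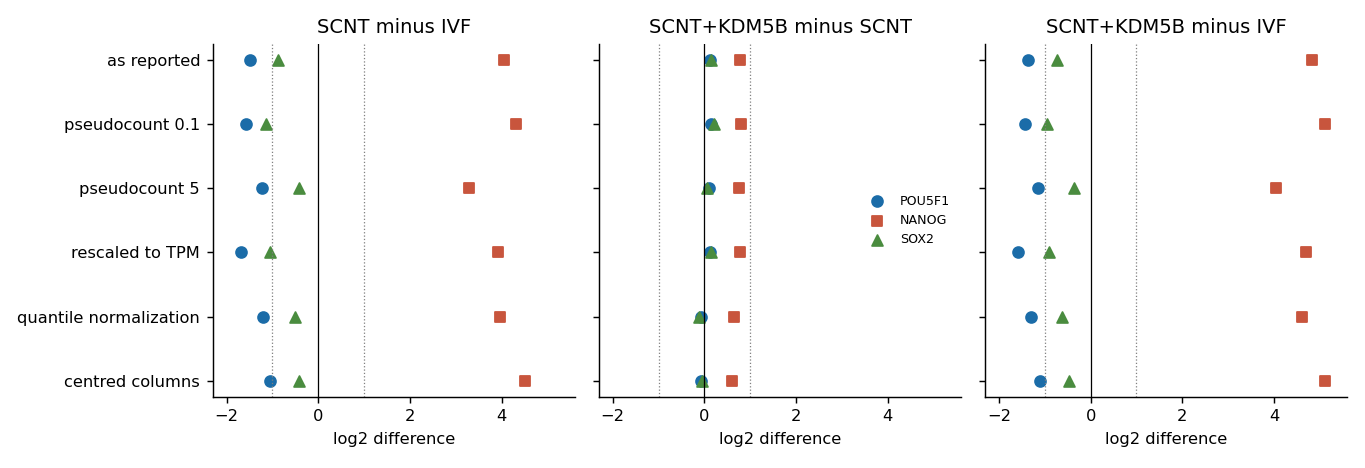
Log2 differences of POU5F1, NANOG and SOX2 (x axis; solid line 0, dotted lines 2-fold) as reported and under 5 alternatives (y axis) for 3 comparisons of embryo groups. NANOG lies between 3.30 and 4.51 in SCNT minus IVF under the alternatives, and POU5F1 and SOX2 sit around 0 in SCNT plus KDM5B minus SCNT.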

How the data were processed

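The authors deposited FPKM values in 1 table, with a single column for each group. Multiplied by 300, 100% of fibroblast values and 99.9955% of those of every embryo group were whole numbers (tolerance 0.001), as means of 3 libraries rounded to 0.01 would be. Tools named in the submitters' processing notes are HISAT 0.1.6, StringTie 1.0.4, RSEM 1.2.12, Bowtie2 2.2.5 and bcl2fastq 2.16, with the build UMD3.1 and no roles. The annotation and any filters were not given in the sources used here. Per the labels' protocols, cDNA was made from whole embryo lysates and amplified. Groups follow the sample titles, because another label of the fibroblasts calls them SCNT embryos.

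Differences of log2(FPKM + 1) between means were taken over loci with 1 FPKM or more in any embryo group, or in either group where fibroblasts were compared, and called at 2-fold. This needs no replicates and replaces a test. Named genes are the 3 members and, for each, the Ensembl locus nearest in log2(FPKM + 1). Genes and lists were chosen with earlier results of these data known. Lists of other pluripotency, fibroblast and embryo genes could not be used without names. Alternatives were pseudocounts of 0.1 and 5, TPM (each column summing to 1000000), quantile normalization, centring of columns, no filter, a mean of 5 FPKM or more, and other sets of loci for percentiles. Centring subtracted from each column the median deviation of its loci from their own mean. That mean was over the embryo groups, or over the 2 groups compared where fibroblasts were 1 of them. The code was tested on simulated data without noise, which checks its arithmetic and not the reliability of the calls. Python 3.11.15, numpy 2.4.6, pandas 2.3.3 and matplotlib 3.10.9 were used.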

Additional observations from a re-analysis of the deposited data

How the results depend on the processing

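Of 75 member differences under an alternative, 70 kept their side of the 2-fold limit. SOX2 in SCNT minus IVF passed it at pseudocount 0.1 (-1.15) and as TPM (-1.06). At pseudocount 5, which shrinks low genes, fibroblasts minus IVF was -0.88 for NANOG and -0.87 for SOX2, and SCNT minus fibroblasts 0.44 for SOX2. Counts of loci 2-fold apart were 8897 for SCNT against IVF (4833 at pseudocount 5, 5012 with a mean of 5 FPKM or more), 1227 for KDM5B against SCNT (341 and 719, and 3113 at pseudocount 0.1), 8471 between KDM5B and IVF embryos (4611 and 4890), 11960 between fibroblasts and IVF embryos (7799 and 7410) and 11080 for SCNT against fibroblasts (7380 and 6997). The mean filter tests fewer loci. With columns centred, 56.8% of the 2-fold calls for SCNT against IVF were higher (38.8% as deposited), 51.2% for KDM5B against SCNT (78.2%) and 56.7% for KDM5B against IVF (45.4%). Quantile normalization gave 53.9% for KDM5B against SCNT. Among loci with at least 1 FPKM only, percentiles were 36.3 for NANOG and 36.6 for SOX2 in IVF, and 17.2 and 20.5 for SOX2 in SCNT without and with KDM5B. Rounding moved no within-group ratio to POU5F1 by 1.5 times. No paired analysis was possible because the table gives only group means, so the replicates numbered in the titles have no values of their own. Single replicates could not be left out either, and depth is unknown.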
